A study of Arabidopsis thaliana with 10 samples.

Results

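The interaction of line and dexamethasone (Dex) was measured across genes in whole Arabidopsis seedlings of the lines P1-12 and KRAB, that is, how far the Dex response of P1-12 differed from that of KRAB. P1-12 carries a Dex-inducible dCas9-KRAB repressor together with the P1 sgRNA, whose protospacer lies at the transcription start of MORF2, and KRAB carries the inducible repressor with no sgRNA. The rule took 8 of the 10 libraries of the series, 2 for each line with 0.25 μM Dex and 2 for each with DMSO, written as (+0.25 μM Dex) and (+DMSO) after the name of the line, and the difference was tested in 16721 of 33602 loci. All seedlings were Col-0 transformants, 8 d old, raised in long days on the same sucrose-containing medium, and the control medium held the solvent DMSO. Each line is the progeny of 1 transformant, so a property of its insertion site cannot be told apart from a property of its construct. Both lines make dCas9-KRAB when given Dex, and P1-12 alone makes the sgRNA, so the subtraction removes what Dex and the free repressor did in KRAB. Nothing in the labels says that the 2 libraries of a group came from separate cultures, and the p-values measure only the spread between these libraries.

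MORF2 is a nuclear-encoded chloroplast protein of the MORF family, which takes part in the C-to-U editing of organelle transcripts. Chloroplasts are built from proteins of both genomes, and a disturbed plastid sends retrograde signals to the nucleus that lower the expression of nuclear photosynthesis genes. Dex is a synthetic glucocorticoid, and the inducible system works through a chimeric receptor that the transgene supplies. A line with the same receptor and effector but no guide is therefore the usual control for such a system.

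The P1 target site is shown because it is the only designed difference between the 2 lines. It is written with its PAM in capitals and lies on the plus strand of chromosome 2 in the TAIR10.1 assembly of RefSeq.
P1 site: gaactggtaagaagtaagaaAGG
The 20 bases before the PAM match positions 14162303 to 14162322, which lie in AT2G33420, a gene that spans 14158671 to 14162618 on the plus strand with a coding sequence that ends at 14162304. In the design of the guide this stretch is where MORF2 transcription starts, and no coordinates of MORF2 itself are given here.

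The libraries held 9139050 to 40544617 counts, with 21985 to 23431 loci detected, and the 10 most abundant loci took 3.76% to 6.92% of a library. Depth was not even across groups. The P1-12 (+0.25 μM Dex) libraries were the smallest, at 9139050 and 10236033 counts, with 22008 and 21985 loci detected. The 2 largest were KRAB (+0.25 μM Dex) replicate 1, at 40544617 counts, and KRAB (+DMSO) replicate 2, at 29749669. The first principal component of the 16721 genes held 84.4% of the variance and set the 2 P1-12 (+0.25 μM Dex) libraries apart from the other 6. These 2 libraries also held a larger share of mitochondrial counts, 0.328% and 0.255% against 0.0623% to 0.0753% in the other 6, and of nuclear rRNA counts, 0.441% and 0.326% against 0.0316% to 0.0520%. Of 22 root markers and 16 shoot markers, which show that both organs were present in every library, the summed levels were 485 to 507 and 698 to 702 CPM (counts scaled to a common library size) in these 2 libraries. The same sums were 541 to 657 and 827 to 949 CPM in the other 6. Both sums were thus smaller where P1-12 had received 0.25 μM Dex. The root sum leans on its most abundant member NRT1.5, at 212 and 211 CPM without and 130 and 120 with Dex in P1-12. TIP2;3, by contrast, went from 13.5 and 16.2 to 53.5 and 66.3 CPM there. The median interaction of the 17 tested root markers was −0.06 on the log2 scale and that of the 12 tested shoot markers −0.33. The trichome marker GL1, too low to be tested, was at 0 in P1-12 (+0.25 μM Dex) replicate 2 and at only 0.317 to 1.42 CPM in the other libraries. The part of these differences in the results was not tested.

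MORF2, the targeted gene, stood at 113 and 118 CPM in P1-12 without Dex and 52.5 and 56.4 with it, and at 124 and 117 in KRAB without Dex and 116 and 123 with it. The P1-12 (+0.25 μM Dex) libraries were the only low ones and did not overlap the other 6. The Dex response of MORF2 was −1.08 on the log2 scale in P1-12 and −0.01 in KRAB. Their difference, the interaction, was −1.07 ± 0.10 (SE, n = 2 per group, 95% interval −1.30 to −0.84, edgeR quasi-likelihood, Benjamini-Hochberg adjusted p = 6.37e-06), or 0.477 times. In whole seedlings, less RNA per cell cannot be told apart from fewer cells that express a gene. At an adjusted p under 0.05, 24.6% of all genes tested had a more negative Dex response in P1-12 and 22.4% a more positive one. Of 8 tested MORF genes, 4 were more negative and none more positive. Besides MORF2 these were MORF9, the other plastid editing factor of the family, with an interaction of −1.10, MORF5 with −0.66 and MORF3 with −0.61. Of 6 tested neighbours of MORF2 on chromosome 2, 2 were called in each direction, and a departure from the shares of all genes was not tested. AT2G33400 (−1.75) and PRPL28, a plastid ribosomal protein gene (−1.58), were more negative in P1-12. AT2G33390 (0.61) and AT2G33435 (0.32) were more positive, the latter with an edgeR adjusted p of 0.0341 that was lost when any 1 of the 4 P1-12 libraries, KRAB (+DMSO) replicate 2 or KRAB (+0.25 μM Dex) replicate 1 was left out.

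Across the 16721 genes, 578 significantly differentially expressed genes (SDEGs) had a Dex response at least 2-fold more positive in P1-12 than in KRAB and 899 had one at least 2-fold more negative, or 3.46% and 5.38% of the genes tested. An SDEG has an absolute log2 interaction of at least 1 and an adjusted p under 0.0001 in edgeR's quasi-likelihood test. At an adjusted p under 0.05 with no fold threshold, 3748 genes (22.4%) were more positive in P1-12 and 4107 (24.6%) more negative. The counts of list members given below are to be read beside these 2 shares. The median interaction was 1.52 in the 578 and −1.49 in the 899, against −0.01 over all genes tested. The Dex response of KRAB contributed little to the sizes, with medians of 0.04 and −0.05 in the same 2 sets. When nuclear loci other than rRNA genes were fitted alone, 1462 of these 1477 SDEGs were called again. The rest were loci that this fit leaves out: 9 positive and 3 negative plastid SDEGs, 2 mitochondrial ones and the rRNA gene AT3G41768. Without P1-12 (+DMSO) replicate 1 the SDEG counts were 322 and 589, and without its replicate 2 the positive count was 383. Without P1-12 (+0.25 μM Dex) replicate 1 they were 310 and 503, and without its replicate 2 they were 293 and 448.

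**Figure D1:**
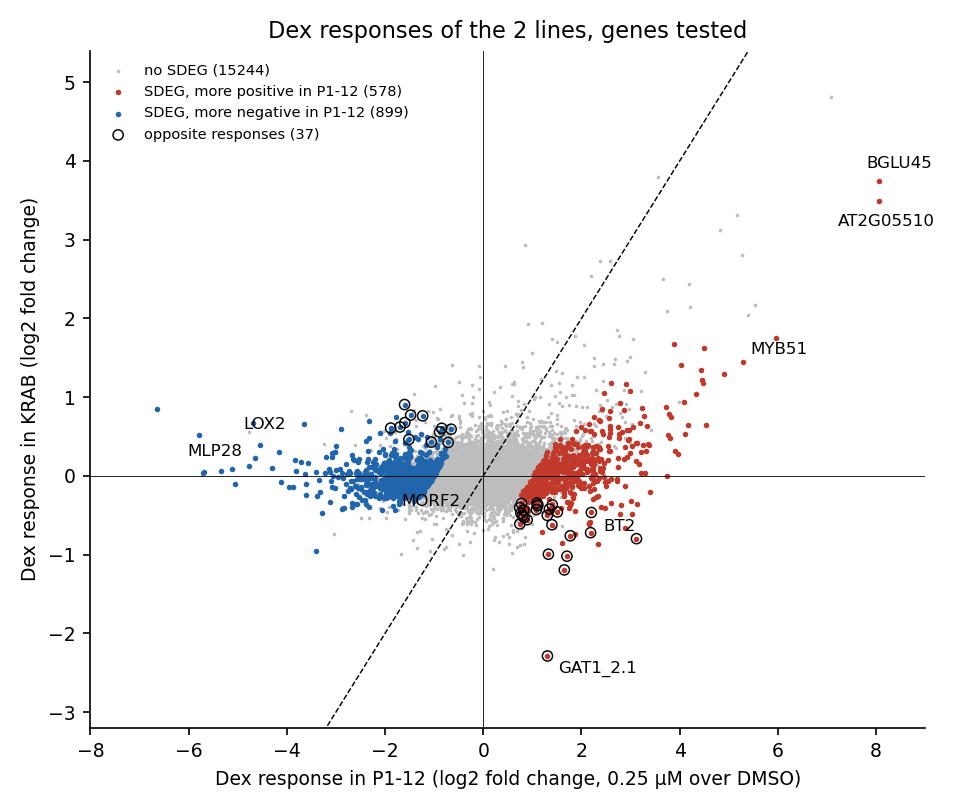
Dex response of each of the 16721 tested genes in P1-12 (x axis) and in KRAB (y axis), both as log2 fold change of 0.25 μM Dex over DMSO, with the dashed line at equal responses. Red points are the 578 SDEGs more positive in P1-12, blue points the 899 more negative, grey points the rest, and circles the 37 SDEGs with opposite responses; most coloured points lie along the horizontal axis, where KRAB responded little.

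All 1477 SDEGs had the same sign of interaction in each of the 16 combinations of 1 library per group. In 1476 of them both P1-12 (+0.25 μM Dex) libraries lay beyond the other 6. Both counts are largely fixed by the choice of these genes from the same 8 libraries. The lines themselves were close before Dex: 3 genes differed between P1-12 (+DMSO) and KRAB (+DMSO) at an adjusted p under 0.05, all higher in P1-12, and 1 of these was an SDEG of the interaction. That gene was XTH17, a xyloglucan endotransglucosylase/hydrolase gene named after its values were seen, at 133 and 123 CPM in P1-12 (+DMSO) and 60.3 and 72.6 in P1-12 (+0.25 μM Dex). In KRAB it was at 20.6 and 22.1 CPM with DMSO and 30.0 and 25.3 with Dex, so all 4 P1-12 libraries exceeded all 4 KRAB libraries and the interaction was −1.33. Dex against DMSO within P1-12 gave 2239 SDEGs, of which 1390 were also SDEGs of the interaction, 2222 had an interaction of the same sign at an adjusted p under 0.05, and for 16 the difference between the lines did not pass that test. AT2G19970, which rose further in KRAB, was the remaining 1.

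How each line moved was read from its own Dex response at an adjusted p under 0.05. In P1-12, 4729 genes rose with Dex (28.3% of those tested) and 4723 fell (28.2%). In KRAB, 256 rose (1.53%) and 99 fell (0.592%). Among the 578 positive SDEGs, 499 (86.3%) rose in P1-12 while KRAB did not pass the test, 54 rose in both lines and 25 rose in P1-12 and fell in KRAB. Among the 899 negative SDEGs, 881 (98.0%) fell in P1-12 alone, 6 fell in both lines and 12 fell in P1-12 and rose in KRAB. No SDEG moved in KRAB alone: 0 genes of either sign did so in edgeR's test, against 2 and 2 with DESeq2. Without the fold threshold edgeR gave 10 and 29 (adjusted p under 0.05). The counts for P1-12 alone moved with the totals, to 247 to 330 positive genes without any 1 of the 4 P1-12 libraries and, leaving aside P1-12 (+DMSO) replicate 2, to 437 to 577 negative ones. The 6 that fell in both lines were 3 without any 1 P1-12 library and 2 without KRAB (+DMSO) replicate 2.

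The promoters of 3 genes with large interactions are shown. LHCB2.3 and CYP83A1 belong to lists whose called members were all more negative in P1-12, light harvesting and aliphatic glucosinolates, and RAP2.2 is a positive SDEG that rose in both lines. Each is the 250 bases before the annotated start in RefSeq TAIR10.1, 5′ to 3′ on the strand of the gene, with a motif in capitals: the G-box CACGTG in the first 2, and in RAP2.2 the evening element AAAATATCT, which lies there as its reverse complement.
LHCB2.3 promoter, chr3:10255656-10255905, plus strand: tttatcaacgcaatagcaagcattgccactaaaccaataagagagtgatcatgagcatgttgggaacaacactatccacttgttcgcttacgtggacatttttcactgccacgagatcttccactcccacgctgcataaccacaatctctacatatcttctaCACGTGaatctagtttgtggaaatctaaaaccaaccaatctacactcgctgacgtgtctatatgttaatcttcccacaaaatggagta
CYP83A1 promoter, chr4:7992430-7992679, minus strand: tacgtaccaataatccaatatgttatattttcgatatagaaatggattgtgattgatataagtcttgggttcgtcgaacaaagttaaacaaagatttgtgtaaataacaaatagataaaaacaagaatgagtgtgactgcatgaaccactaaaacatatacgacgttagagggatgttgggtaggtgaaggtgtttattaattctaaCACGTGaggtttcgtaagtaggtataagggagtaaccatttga
RAP2.2 promoter, chr3:4739299-4739548, minus strand: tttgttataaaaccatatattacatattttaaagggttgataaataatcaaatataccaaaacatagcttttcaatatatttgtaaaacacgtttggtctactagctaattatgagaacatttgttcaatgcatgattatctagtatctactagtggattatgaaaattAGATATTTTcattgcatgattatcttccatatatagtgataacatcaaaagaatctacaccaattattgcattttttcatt
The G-box, a light-related element, stood in 10.7% of the promoters of 895 matched negative SDEGs and in 4.76% of those of 567 positive ones, counting both strands from 250 bases before to 50 after the start. Over all 37897 promoters the share was 6.46%, over the 16661 tested genes with a promoter 8.84%, and in the list of 45 photosystem and light-harvesting genes 31.1%. The I-box GATAAG stood in 21.2% of the negative and 18.5% of the positive SDEGs against 15.1% of all promoters and 15% of those of tested genes, and in 44.4% of the photosystem list. The evening element, which occurs in clock-controlled genes, stood in 5.64% of the positive and 2.79% of the negative SDEGs against 2.49% of all promoters and 3.08% of those of tested genes. The W-box core TTGACC, the letters that WRKY factors bind, stood in 14.1% of the positive and 12.3% of the negative SDEGs against 13.5% of all and 14.3% of tested genes' promoters. TTGACT stood in 21.5% and 15.5% against 21.2% and 21.8%. For the GCC-box GCCGCC, bound by ethylene response factors, the shares were 3.70% and 1.68% against 2.72% and 2.73%. For the core of the mitochondrial dysfunction motif they were 9.52% and 7.60% against 10.5% of all and 8.12% of tested genes' promoters, and for CCGAC 14.6% and 14.9% against 15.3% and 16.5%. These are shares of letters in a window and were not tested.

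Nuclear genes for the photosynthetic apparatus had a more negative Dex response in P1-12 than in KRAB almost throughout. All 45 genes of photosystems and light harvesting were more negative in P1-12, 31 of them as SDEGs, with a median interaction of −1.25 and a range of −3.74 to −0.57. LHCB2.3, an antenna protein gene of photosystem II, stood at 849 and 780.5 CPM in P1-12 without Dex and 57.6 and 53.0 with it, and at 690.5 and 948 in KRAB without Dex and 712 and 776 with it. The 2 P1-12 (+0.25 μM Dex) libraries did not overlap the others, and the interaction was −3.74 ± 0.18, a response 0.0748 times that of KRAB. Smaller differences held for LHCA6 (−2.32), an antenna that links photosystem I to the NDH complex, LHCB1.4 (−2.28) and LHCB3 (−1.94), both of the main antenna of photosystem II. LHCB1.4 also fell in KRAB, by 0.39 on the log2 scale, and with it 1 other member of this list. Reads of near-identical copies, such as the LHCB1, RBCS, MAM and PP2-A genes, may have been shared or dropped in the authors' counting, and single members of these families are uncertain.

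In the Calvin cycle 18 of 20 tested genes were more negative in P1-12, with a median of −0.92. The small subunit genes of Rubisco RBCS2B (−2.11), RBCS3B (−1.85) and RBCS1B (−1.44), together with GAPA2 (−1.48) of glyceraldehyde-3-phosphate dehydrogenase, led it by p. Tetrapyrrole and chlorophyll synthesis had 25 of 27 genes more negative, with a median of −1.12. PORC, one of the light-dependent protochlorophyllide oxidoreductases, went from 189 and 189.6 CPM to 35.8 and 36.6 in P1-12 and from 167 and 178 to 164 and 195 in KRAB. Its interaction was −2.43 ± 0.13, and those of the second oxidoreductase PORB, of the divinyl reductase gene DVR and of GSA2, which makes the first committed precursor, were −1.90, −2.05 and −1.60. HEMA2, the glutamyl-tRNA reductase gene that is also active outside green tissue, was the exception at 0.56 (edgeR adjusted p = 0.00283).

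All 34 nuclear genes for plastid ribosomal proteins were SDEGs more negative in P1-12, with a median of −1.58 and a range of −2.01 to −1.05, a narrow band in the plot of the interaction by list. PRPL9 stood at 249 and 245 CPM without and 55.9 and 55.6 with Dex in P1-12, and at 247 and 250.2 without and 229.8 and 224 with Dex in KRAB. Only the 2 P1-12 (+0.25 μM Dex) libraries were low, and the interaction was −2.01 ± 0.09. PRPS21 (−1.89), PRPL35 (−1.85) and PRPL15 (−1.78) were next by p. Of 20 nuclear genes for plastid transcription, 18 were more negative, among them TRXZ (−1.99), PTAC14 (−1.59), FSD3 (−1.65) and PTAC3 (−1.48), all parts of the plastid-encoded polymerase complex. RPOTMP, the phage-type polymerase shared with mitochondria, was more positive at 0.66. Chloroplast chaperones and proteases had 16 of 23 more negative, led by the chaperonin subunits CPN60B2 (−2.19), CPN60B1 (−1.98), CPN60A1 (−1.77) and CPN20 (−1.74), and the thylakoid protease gene FTSH8 was more positive at 0.74.

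The regulators of greening were mixed: 4 of 15 were more negative, 2 more positive and 9 did not pass the test, with a median of 0.03. Over all genes tested 24.6% were more negative and 22.4% more positive. GLK2, an activator of photosynthesis genes, went from 65.6 and 75.4 CPM to 20.3 and 17.7 in P1-12 and from 54.7 and 65.5 to 63.1 and 69.6 in KRAB, with an interaction of −2.02 ± 0.16. The GATA factor gene GNC was at −1.34. The photoreceptor gene PHYA (1.06) and BBX21 (1.11), a B-box factor of photomorphogenesis, were more positive in P1-12.

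Transcripts of the organelle genomes moved in both directions. The summed share of plastid counts was 1.01% and 0.968% in P1-12 (+DMSO) and 0.799% and 0.609% with Dex, the lowest of the 8 libraries, and in KRAB it was 1.07% and 1.08% without and 0.891% and 0.874% with Dex. Of 47 tested plastid loci, 21 were more positive in P1-12 and 13 more negative, with a median of 0.44 and a range of −1.50 to 3.92. ATCG00020 went from 32.1 and 28.1 CPM to 295 and 229 in P1-12 and from 30.5 and 39.8 to 24 and 15.2 in KRAB. It rose in P1-12 by 3.12 and fell in KRAB by 0.80 (edgeR adjusted p = 0.0497), and its interaction of 3.92 ± 0.26 was the largest of the plastid loci. At the other end ATCG01130, named after its values were seen, stood at 1764 and 1699 CPM without and 599.5 and 477 with Dex in P1-12, and at 1886 and 1801 without and 1564 and 1674 with Dex in KRAB, an interaction of −1.50. All 3 tested mitochondrial loci were more positive in P1-12, at 1.70 to 2.17, in the libraries whose mitochondrial and rRNA shares were also the highest. Organelle transcripts carry few poly(A) tails, and the part of RNA selection in these values was not tested.

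**Figure D2:**
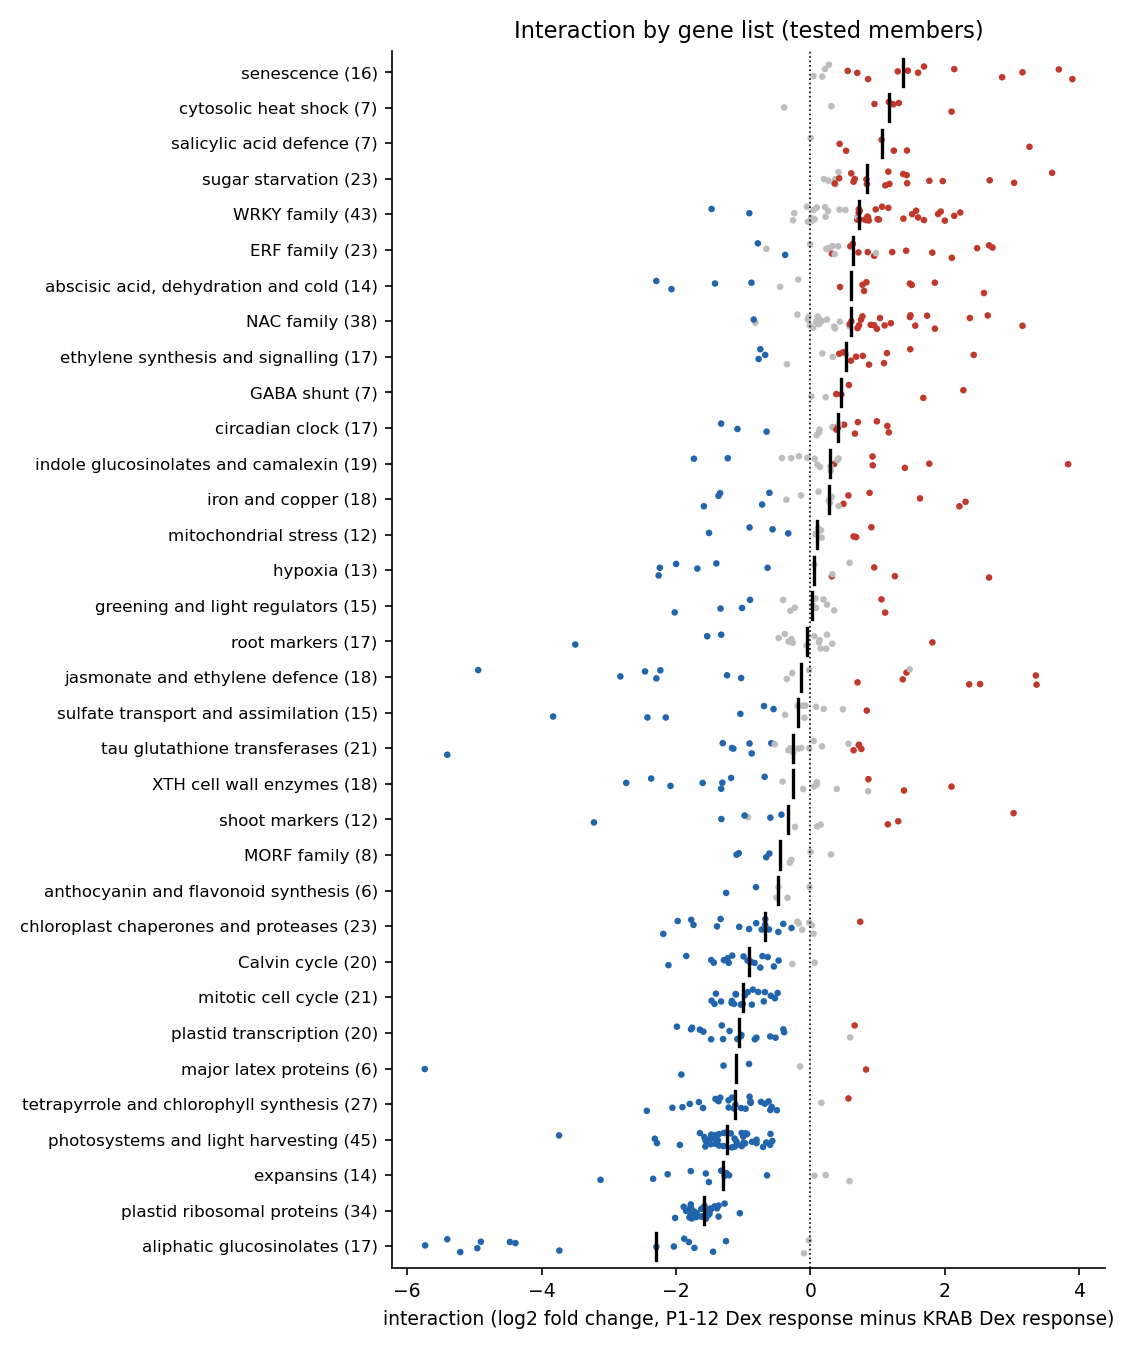
Interaction of line and Dex (x axis, log2, Dex response of P1-12 minus that of KRAB) for each tested member of the gene lists (rows, number tested in brackets), with the list median as a vertical bar. Red and blue points passed an adjusted p under 0.05 as more positive and more negative in P1-12, and grey points did not; the lists of plastid ribosomal proteins, photosystems and the mitotic cell cycle hold blue points alone.

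Genes of aliphatic glucosinolate synthesis had the most negative median of the lists, −2.29, with 15 of 17 more negative in P1-12 and 14 of these SDEGs. Aliphatic glucosinolates are sulfur-rich defence compounds that brassicas make from methionine, whose side chain is first elongated. BCAT4, the aminotransferase that opens the elongation cycle, stood at 121 and 169 CPM in P1-12 without Dex and 2.96 and 2.64 with it, and at 162 and 141 in KRAB without Dex and 152 and 157 with it. In the 2 P1-12 (+0.25 μM Dex) libraries it was close to the CPM of 2 used for filtering, while the other 6 lay above 100 CPM, and the interaction was −5.73 ± 0.24 (edgeR adjusted p = 3.12e-08). The later enzymes of the cycle followed, with −4.96 for the methylthioalkylmalate synthase gene MAM1, −5.21 and −4.47 for the isomerase subunit genes IPMI-SSU2 and IPMI-SSU3 and −4.39 for the dehydrogenase gene IPMDH1. CYP83A1, the P450 that oxidizes aliphatic aldoximes, went from 176 and 226 CPM to 9.39 and 5.46 in P1-12 and from 200.5 and 182 to 203 and 215 in KRAB, an interaction of −4.90 ± 0.23. GSTU20, a tau glutathione transferase gene counted in this list and in the tau class list, stood at 585 and 666 CPM without and 19.5 and 11.6 with Dex in P1-12 and at 602 and 584 without and 601 and 637 with Dex in KRAB. Its interaction was −5.40. The MYB factor gene MYB28, which activates the aliphatic pathway, was at −1.81, and MAM3 at −1.45 fell in P1-12 and rose in KRAB. The members that did not pass the test were SUR1 (−0.02), a lyase gene shared with the indole branch, and SOT17 (−0.10), a sulfotransferase gene. These 4 were named after their values were seen.

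The indole branch, made from tryptophan, did not move with the aliphatic branch. Of 19 tested genes 6 were more positive in P1-12, 2 more negative and 11 did not pass, with a median of 0.30, and without P1-12 (+DMSO) replicate 1 the negative members were 4. MYB51, an activator of indole glucosinolate synthesis, stood at 6.63 and 6.64 CPM in P1-12 without Dex and 264 and 252 with it, and at 7.34 and 5.53 in KRAB without Dex and 17.4 and 15.7 with it. The 4 DMSO libraries were alike, both KRAB Dex libraries lay above them and both P1-12 Dex libraries far above those. MYB51 thus rose in both lines, by 5.28 and 1.45, and the interaction was 3.83 ± 0.18. CYP83B1, the indole counterpart of CYP83A1, went from 188 and 211 CPM to 1146 and 1259 in P1-12 and from 208 and 188 to 376 and 322 in KRAB, an interaction of 1.77. SOT16, the indole desulfoglucosinolate sulfotransferase gene, was at 0.93, and MYB34, a further activator of the branch, went the other way at −1.73. In KRAB itself 5 of the 19 indole genes rose and none fell, against 1 and none of the 17 aliphatic genes.

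**Figure D3:**
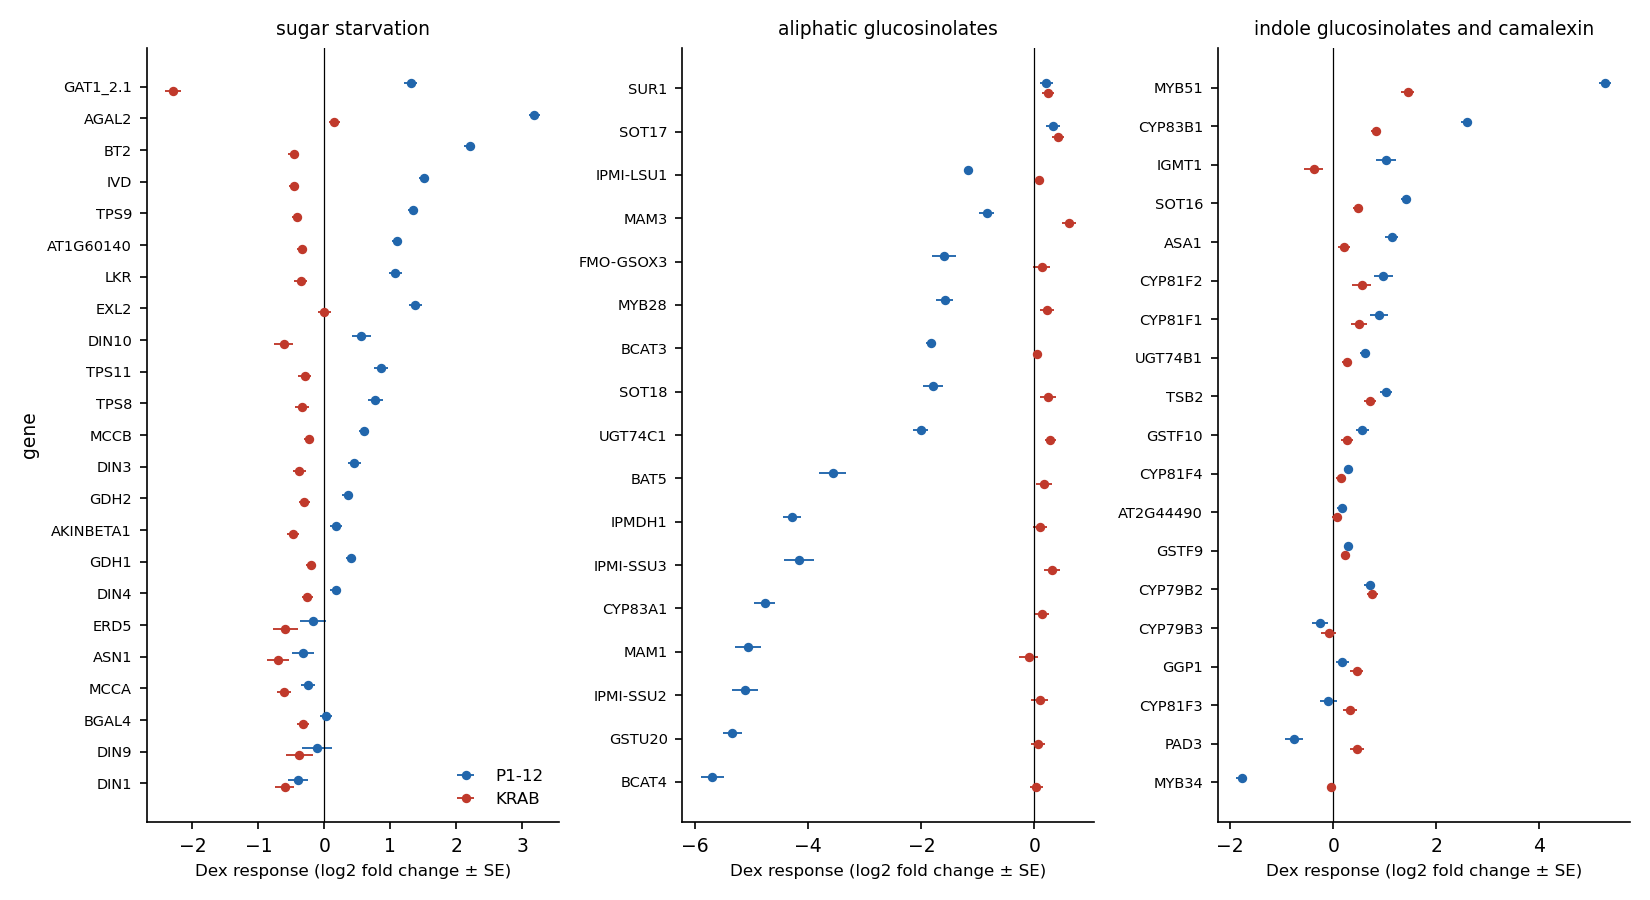
Dex response with its SE (x axis, log2 fold change of 0.25 μM Dex over DMSO) of each tested member of 3 gene lists in P1-12 (blue) and in KRAB (red). In the aliphatic list the blue points reach −5.70 while the red ones lie between −0.10 and 0.60, in the indole list both colours lie mostly above 0, and in the sugar starvation list 8 genes fell in KRAB and 15 rose in P1-12.

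Sulfur supply and detoxification genes were divided. Of 15 genes of sulfate transport and assimilation, 6 were more negative in P1-12 and 1, SDI2 (0.84), more positive, with a median of −0.19. The sulfate transporter gene SULTR2;1, active in the vasculature, went from 167 and 168 CPM to 10.1 and 11.3 in P1-12 and from 171 and 182 to 155 and 167 in KRAB. Its interaction of −3.83 ± 0.12 was the most negative of the list, followed by SULTR3;5 (−2.43) and the ATP sulfurylase gene APS3 (−2.15). APR1, which reduces activated sulfate, rose in KRAB from 45.7 and 40.4 CPM to 76.9 and 70.0 and stood at 42.8 and 61.7 without and 43.1 and 44.3 with Dex in P1-12, an interaction of −1.04. Among 21 tau glutathione transferases 7 were more negative and 4 more positive, against 24.6% and 22.4% of all genes tested. GSTU5 was at −1.17 and GSTU7 at 0.72.

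The list of jasmonate and ethylene defence had 7 of 18 genes in each direction and a median of −0.15. Grouped by role after the values were seen, 5 of 6 jasmonate synthesis genes were more negative in P1-12 and none more positive, and 5 of 6 defence genes that need ethylene together with jasmonate were more positive and none more negative. The JAZ repressor genes were divided, with 2 in each direction. LOX2, the chloroplast lipoxygenase gene of jasmonate synthesis, stood at 887 and 1888 CPM in P1-12 without Dex and 46.9 and 70.8 with it, and at 1279.5 and 925 in KRAB without Dex and 1357 and 1528 with it. The 2 P1-12 (+DMSO) libraries differed by more than 2-fold, but both P1-12 Dex libraries lay below all others, and the interaction was −4.94 ± 0.42 (95% interval −5.85 to −4.04). Against this, PR4 (2.52), the chitinase gene CHIB (1.37) and the defensin gene PDF1.2A (3.36 ± 0.67, edgeR adjusted p = 0.00130) were more positive, and all 3 also rose in KRAB. The allene oxide synthase gene AOS, of jasmonate synthesis, was at −2.46.

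Other genes with the most negative interactions also had uneven DMSO libraries. BGLU18, a β-glucosidase gene of endoplasmic reticulum bodies, was at 410.4 and 1548 CPM in P1-12 without Dex and 15.2 and 20.1 with it, and at 1055 and 454 in KRAB without Dex and 1167 and 982 with it. Among the genes that passed the count filter, the most negative interaction, −7.49 ± 0.89, belonged to AT3G28220. Some genes outside this filter had more negative fitted interactions under the looser filter described at the end. AT3G28220 stood at 71.8 and 286 CPM in P1-12 without Dex and at 2.11 and 1.51 with it. In KRAB it was at 142 and 80.4 CPM without Dex and 216 and 180.1 with it. In both genes replicate 2 of P1-12 (+DMSO) was several times replicate 1, both P1-12 Dex libraries lay below all others, and for BGLU18 the interaction was −6.30 ± 0.75. CORI3, a cystine lyase gene known as coronatine-induced, was at −5.36. MLP28, of the major latex protein family, stood at 155 and 154 CPM in P1-12 without Dex and 3.17 and 2.82 with it, and at 138 and 158 in KRAB without Dex and 157 and 148 with it. Replicates were close in all groups and the interaction was −5.74 ± 0.15 (edgeR adjusted p = 1.17e-09). RGF9, of a family of root growth factor peptides, went from 34.2 and 36.6 CPM to 2.11 and 0.753 in P1-12 and from 32.7 and 32.2 to 36 and 40.7 in KRAB, an interaction of −4.89. AT1G06360 was at −3.66, and 4 of 6 major latex protein genes were more negative.

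**Figure D4:**
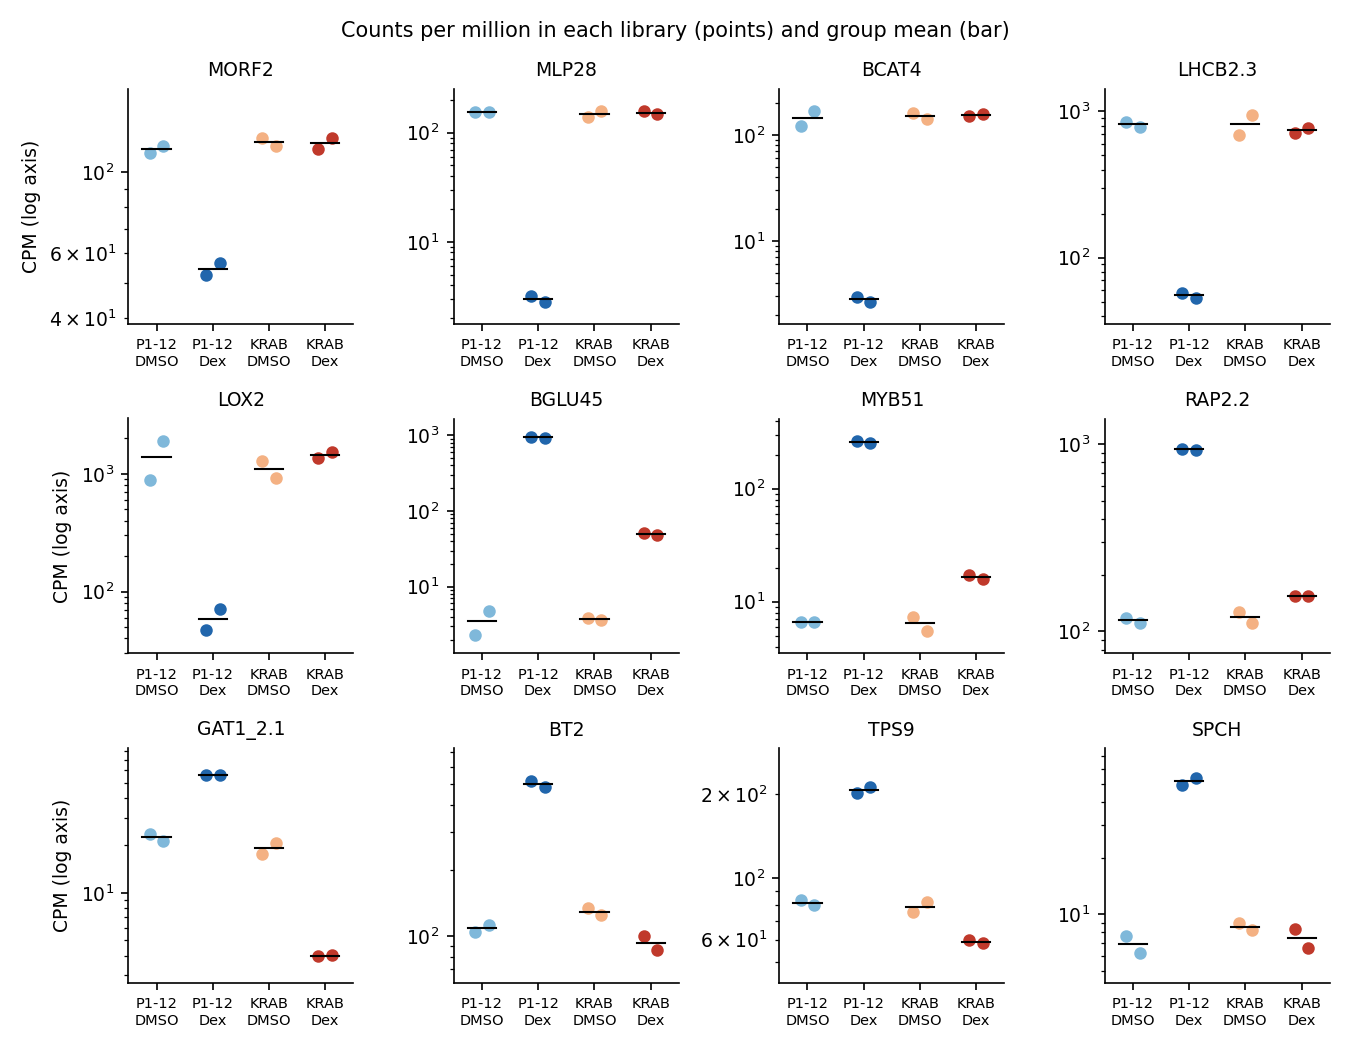
CPM (y axis, logarithmic) of 12 genes in each of the 8 libraries, with points for the libraries and bars for the group means. MORF2, MLP28, BCAT4, LHCB2.3 and LOX2 are low in the 2 P1-12 Dex libraries alone, BGLU45, MYB51 and RAP2.2 are highest there and raised in KRAB with Dex, and GAT1_2.1, BT2 and TPS9 are raised in P1-12 and lowered in KRAB.

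Among the 16721 genes that passed the count filter, the 2 largest positive interactions belonged to genes that also rose in KRAB. AT2G05510 stood at 10.5 and 15.6 CPM in P1-12 without Dex and 3574 and 3378 with it, and at 10.4 and 6.82 in KRAB without Dex and 127 and 50.8 with it, an interaction of 4.57 ± 0.52. BGLU45, a β-glucosidase gene that acts on monolignol glucosides, was at 2.32 and 4.75 CPM in P1-12 without Dex and 948 and 926 with it, and at 3.89 and 3.60 in KRAB without Dex and 51.5 and 47.7 with it. It rose 265-fold in P1-12 and 13.4-fold in KRAB, and the ratio of these responses was 19.7 (log2 4.30 ± 0.26, edgeR adjusted p = 2.00e-07). The KRAB Dex libraries of AT2G05510 were uneven, but in both genes the order of the groups was the same, with the DMSO libraries lowest, the KRAB Dex libraries between and the P1-12 Dex libraries highest, without overlap. AT5G05320 (4.22) and the MYB factor gene MYBC1 (3.60) also rose in both lines. HIS1-3, a drought-inducible linker histone gene, went from 2.64 and 3.77 CPM to 81.5 and 67.9 in P1-12 and was at 2.92 and 3.11 without and 4.46 and 5.51 with Dex in KRAB, where the response did not pass the test. The same held for the P450 gene CYP71B19 (3.60), SHI (3.75), a developmental transcription factor gene, AT4G39675 (3.61) and SAG29 (3.69), a sugar transporter gene of senescing leaves.

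Of the 54 positive SDEGs that rose in both lines, 4 had the smallest p beside MYB51. RAP2.2, an ethylene response factor gene of the hypoxia-related group, went from 118 and 111 CPM to 949.6 and 929 in P1-12 and from 127 and 111 to 155 and 154 in KRAB. All 4 Dex libraries lay above those with DMSO, and the interaction was 2.66 ± 0.11. AT1G14890, AT1G05960 and AT2G36220 showed the same order, with interactions of 3.32, 2.69 and 3.52. Without KRAB (+DMSO) replicate 2 the count of such genes was 25, and without either P1-12 (+0.25 μM Dex) library it was 33.

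Stress-related transcription factor families leaned to a more positive response in P1-12. Their members were taken by gene symbol, 71 WRKY, 100 NAC and 39 ERF genes, so family members under other names are left out. Listed genes that were not tested fell outside the count filter. Of the tested WRKY genes, which act mainly in defence and senescence, 26 of 43 were more positive and 2 more negative, with a median of 0.73, against 22.4% and 24.6% of all genes. Among them WRKY18 went from 22.6 and 28.3 CPM to 172 and 172 in P1-12 and from 19.7 and 15.7 to 28.1 and 20.2 in KRAB, an interaction of 2.23 ± 0.21. WRKY57 (1.90) and WRKY6 (1.69) were more positive too, and TTG2 (−1.47), the WRKY gene of trichome and seed coat fate, more negative. In the NAC family 20 of 38 were more positive and 1 more negative, with a median of 0.60. ATAF1, a NAC gene of stress and senescence, went from 21.7 and 22.2 CPM to 379.7 and 373 in P1-12 and from 22.6 and 21.9 to 47.7 and 36.1 in KRAB, rising in both, and its interaction was 3.15 ± 0.16. NAC1 (2.64) rose in P1-12 alone and NAC053 (2.37), a factor of the proteasome stress response, in both. In the ERF family 13 of 23 were more positive and 2 more negative, with a median of 0.63, and without any 1 library but P1-12 (+DMSO) replicate 1 and KRAB (+0.25 μM Dex) replicate 2 the negative members were 1. Among the positive were ERF8 (2.48) and ERF4 (4.29 times), both repressors.

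Salicylic acid defence genes were more positive in 6 of 7 tested, and none was more negative. PR5, a pathogenesis-related protein gene, went from 9.59 and 9.51 CPM to 91.6 and 96.2 in P1-12 and was at 12.3 and 8.92 with DMSO and 9.11 and 13.1 with Dex in KRAB. The KRAB groups overlapped and the interaction was 3.26 ± 0.24. ICS1, the isochorismate synthase gene of salicylic acid synthesis, was at 1.44, SAG101 at 1.24 and PAD4 at 1.06, the last 2 partners in immune signalling. A further 9 of 16 listed genes fell outside the count filter. Ethylene genes had 10 of 17 more positive and 3 more negative, with EBF2, an F-box gene that limits the response, at 1.14, the kinase gene CTR1 at 0.87 and the ACC oxidase gene ACO4 at −0.77. Genes of senescence were more positive in 12 of 16 with none more negative, and of abscisic acid, dehydration and cold in 8 of 14 with 4 more negative. In the latter list COR47 (1.51) and the phosphatase gene ABI2 (1.85) stood against KIN2 (−2.29). Cytosolic heat shock genes were more positive in 5 of 7, with HSFA7A at 4.28 times, and on the log2 scale HSP70 at 1.31, HSP90.1 at 1.23 and HSP101 at 1.17.

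In the iron and copper list 6 of 18 genes were more positive in P1-12 and 5 more negative, against 22.4% and 24.6% of all genes tested. Among them were superoxide dismutase genes in both directions. CSD2, the chloroplast copper/zinc enzyme gene, went from 40.6 and 45.3 CPM to 237 and 238 in P1-12 and was at 51.8 and 42.7 without and 55.6 and 48.2 with Dex in KRAB, an interaction of 2.31 ± 0.14. Its copper chaperone gene CCS (2.22) and the cytosolic CSD1 (1.63) were also more positive. FSD1, the iron enzyme gene, went from 1309 and 1211 CPM to 364 and 359 in P1-12 and from 1141 and 1214 to 928 and 816 in KRAB, falling in both, and was more negative at −1.37. Of the other superoxide dismutase genes tested, named after their values were seen, FSD2 (−1.76), FSD3 (−1.65), CSD3 (−0.51) and the mitochondrial MSD1 (−0.31) were more negative. Genes of mitochondrial stress (3 more positive and 4 more negative of 12) and hypoxia (4 and 6 of 13) showed no common direction, and in the GABA shunt 5 of 7 were more positive. Within the hypoxia list the pyruvate decarboxylase gene PDC2 was at 1.26 and the sucrose synthase gene SUS4 at −2.24. Without P1-12 (+DMSO) replicate 1 the negative hypoxia members were 3, and the negative mitochondrial stress members were 1 without replicate 2 of either P1-12 group and 2 without KRAB (+DMSO) replicate 2.

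In the sugar starvation list, genes induced when carbohydrate runs short, the median Dex responses of the 2 lines had opposite signs. Of 23 tested, 18 were more positive in P1-12 and none more negative, 10 of them SDEGs, with a median interaction of 0.84. In P1-12 15 rose with Dex and 1 fell (median 0.56), while in KRAB none rose and 8 fell (median −0.38). Over all genes tested, 28.3% rose and 28.2% fell in P1-12, and 1.53% rose and 0.592% fell in KRAB. Not all members parted: DIN1 (−0.40 in P1-12 and −0.60 in KRAB), ASN1 (−0.33 and −0.70), DIN9, MCCA and ERD5 had negative estimates in both lines. GAT1_2.1, a glutamine amidotransferase-like gene, stood at 23.7 and 21.4 CPM in P1-12 without Dex and 55.9 and 55.8 with it, and at 17.7 and 20.7 in KRAB without Dex and 3.98 and 4.00 with it. It was the only gene to fall as an SDEG in KRAB, by 2.29 on the log2 scale, and rose in P1-12 by 1.31, so that it was highest in P1-12 with Dex, lowest in KRAB with Dex and between in all 4 DMSO libraries. The interaction was 3.60 ± 0.16 (edgeR adjusted p = 3.32e-08). BT2, a BTB/TAZ scaffold protein gene of sugar and nitrogen responses, went from 105 and 113 CPM to 515 and 484 in P1-12 and from 134 and 124 to 99.8 and 86.4 in KRAB, an interaction of 2.67. IVD, the isovaleryl-CoA dehydrogenase gene of leucine breakdown, went from 45.0 and 49.1 CPM to 135 and 133 in P1-12 and from 51.8 and 51.3 to 38.7 and 35.8 in KRAB, an interaction of 1.97. TPS9, one of the trehalose-6-phosphate synthase-like genes, went from 83.3 and 79.8 CPM to 203 and 212 and from 75.5 and 82.3 to 59.7 and 58.2, an interaction of 1.77. In BT2, IVD and TPS9 both KRAB Dex libraries lay below both KRAB DMSO libraries and both P1-12 Dex libraries above all others. AGAL2, an α-galactosidase gene, rose in P1-12 alone, from 25.7 and 28.0 CPM to 246 and 241, with 24.2 and 27.8 without and 28.5 and 30.2 with Dex in KRAB and an interaction of 3.03.

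In all, 37 SDEGs had Dex responses that passed the test in opposite directions, 25 up in P1-12 and down in KRAB and 12 the reverse. Besides the sugar starvation genes, KTI1, a Kunitz-type protease inhibitor gene, went from 40.0 and 42.3 CPM to 128 and 153 in P1-12 and from 46.0 and 46.0 to 25.2 and 30.1 in KRAB, an interaction of 2.53. Of the other genes up in P1-12 and down in KRAB, named after their values were seen, BCAT-2 (2.91) is a branched-chain aminotransferase gene and CIPK16 (2.85) a protein kinase gene, and TMT1 (1.48) encodes a vacuolar sugar transporter. The 12 of the reverse kind ran from −2.51 for AT4G36430, at 31.5 and 27.7 CPM without and 9.18 and 10.3 with Dex in P1-12 and 25.4 and 27.5 without and 44.6 and 56.6 with Dex in KRAB, to −1.14 for RPL3B, a ribosomal protein gene. The KRAB side of these genes was small: apart from GAT1_2.1 the KRAB responses lay between −1.19 and 0.91. The counts rest on single libraries, with 4 and 6 such genes without KRAB (+DMSO) replicate 2, 12 and 5 without P1-12 (+0.25 μM Dex) replicate 1, and 7 of the reverse kind without KRAB (+0.25 μM Dex) replicate 1. Those of the first kind were 13 without P1-12 (+0.25 μM Dex) replicate 2, and without P1-12 (+DMSO) they were 15 (replicate 1) and 13 (replicate 2).

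**Figure D5:**
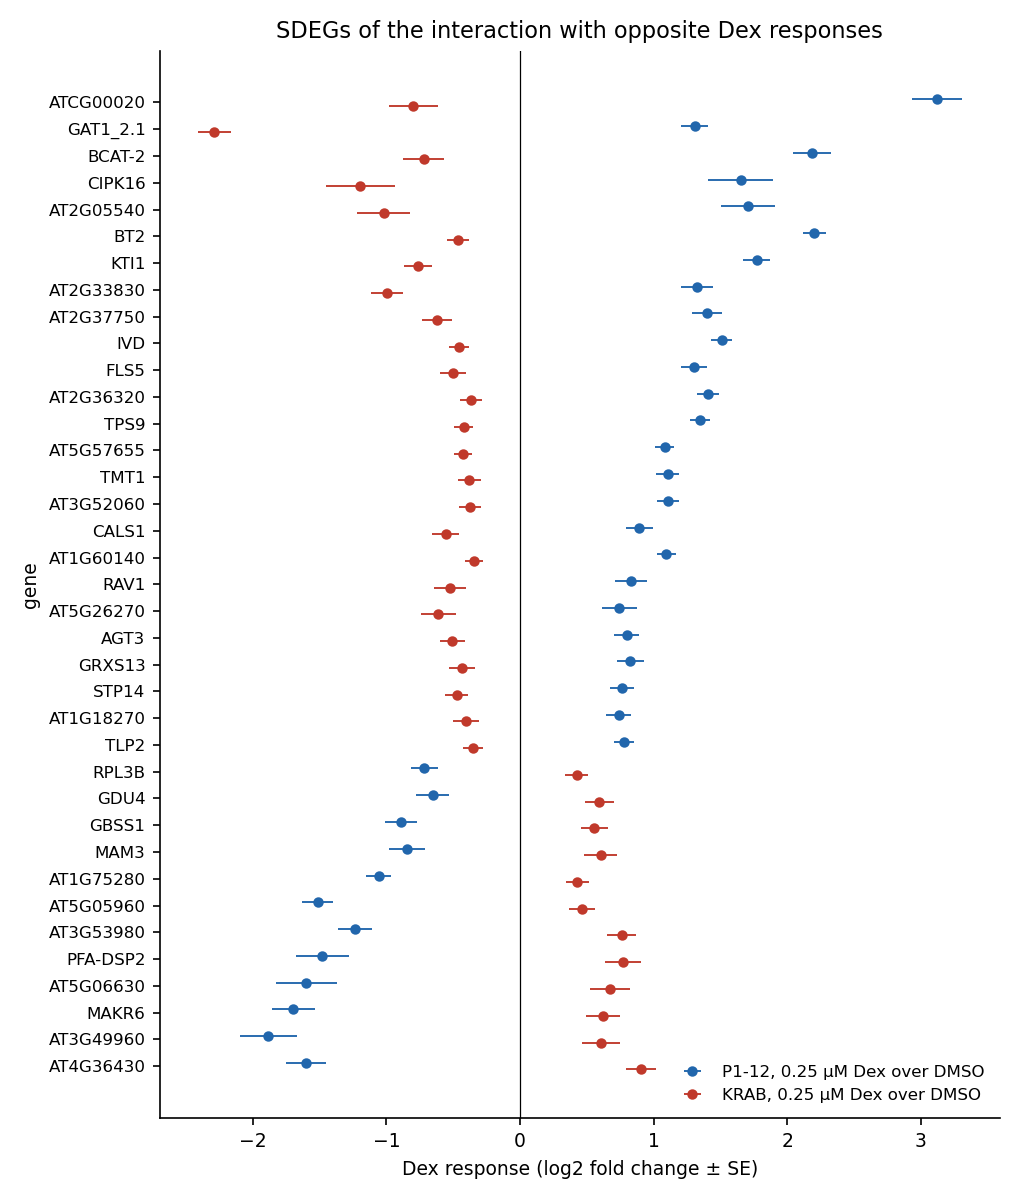
Dex response with its SE (x axis, log2 fold change of 0.25 μM Dex over DMSO) of the 37 SDEGs of the interaction whose responses passed an adjusted p under 0.05 in opposite directions, in P1-12 (blue) and in KRAB (red). The upper 25 rose in P1-12 and fell in KRAB, the lower 12 the reverse, and GAT1_2.1 has the largest response in KRAB, −2.29.

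Genes of the mitotic cell cycle were more negative in P1-12 in all 21 tested, 6 of them as SDEGs, with a median of −1.01 and a range of −1.47 to −0.49. KNOLLE, the syntaxin gene of cell plate formation, went from 66.2 and 59.6 CPM to 26.9 and 27.0 in P1-12 and from 65.9 and 69.9 to 66.7 and 61.3 in KRAB, an interaction of −1.14 ± 0.12. The kinesin gene HINKEL (−1.17), PLE (−1.33), a microtubule-bundling protein gene of the spindle and phragmoplast, and the cyclin gene CYCA1;1 (−1.43) were next by p. Of 14 expansins, which loosen cell walls, 11 were more negative and none more positive, with a median of −1.30. EXPB3 went from 103 and 107 CPM to 9.39 and 10.6 in P1-12 and from 98.2 and 108 to 86.9 and 85.2 in KRAB, an interaction of −3.12 ± 0.12, and EXPA5 (−2.34), EXPA1 (−2.13) and EXPA4 (−1.51) followed. XTH genes of the wall were divided, 8 of 18 more negative and 3 more positive, with XTH31 at −2.74 and XTH23 at 4.28 times. The positive XTH genes were 5 without KRAB (+DMSO) replicate 1 and 6 without KRAB (+0.25 μM Dex) replicate 1.

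Markers of organs and cell types did not share 1 direction either. Of 12 tested shoot markers 5 were more negative and 3 more positive, and of 17 root markers 3 and 1, against 24.6% and 22.4% of all genes. SPCH, the factor that starts the stomatal lineage, went from 7.67 and 6.23 CPM to 49.4 and 53.7 in P1-12 and was at 8.93 and 8.22 without and 8.32 and 6.58 with Dex in KRAB, an interaction of 3.02 ± 0.20. TMM, a receptor-like protein gene of the same lineage, was at 1.15. FAMA, which acts late in that lineage and was named after its values were seen, went from 18.1 and 22.1 CPM to 8.02 and 7.63 in P1-12 and was at 16.3 and 19.3 without and 18.0 and 17 with Dex in KRAB, an interaction of −1.33. The stomatal peptide gene EPF2, which did not pass the count filter, was at 3.92 and 3.61 CPM without and 1.69 and 1.79 with Dex in P1-12. CER1, of wax alkane synthesis in the epidermis, went from 43.2 and 38 CPM to 4.75 and 4.52 in P1-12 and was at 34.9 and 37.1 without and 33.1 and 45.8 with Dex in KRAB, an interaction of −3.22. Among root markers the nitrate transporter gene NRT2.1 was at −3.50 ± 0.48 and the tonoplast aquaporin gene TIP2;3 at 1.81. Without KRAB (+DMSO) replicate 2 the negative root markers were 5, and the positive were 2 without P1-12 (+0.25 μM Dex) replicate 1 or KRAB (+0.25 μM Dex) replicate 1. Clock genes were more positive in 9 of 17 and more negative in 3, with GI at 1.14, from 171 and 169 CPM to 329 and 351 in P1-12 and from 169.8 and 175 to 149.8 and 163 in KRAB, and TOC1 at 0.99. Of 9 genes often used as references 2 were more positive, UBQ10 (0.92) and ACT2 (0.60), and 2 more negative, GAPC2 (−0.82) and EF1A (−0.39), of which 1 was called without P1-12 (+DMSO) replicate 1. The flavonoid list was thin, with 6 of 15 members tested and 2, CHS (−0.81) and FLS1 (−1.26), more negative. This count was not the same without P1-12 (+0.25 μM Dex) replicate 1. CHS rose in KRAB, by 0.65 on the log2 scale, and its response in P1-12, −0.17, did not pass the test. The flavonoid gene DFR fell outside the count filter. Under the looser filter described at the end its interaction was −5.91, with 229 and 247 counts without and 8 and 4 with Dex in P1-12.

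The KRAB line supplied the smaller side of the interaction. Of the 256 genes that rose in KRAB with Dex, 185 rose in P1-12 too, 28 fell there and 43 did not pass the test, and the median response of the 256 was 0.65 in KRAB and 1.08 in P1-12. Of the 99 that fell in KRAB, 35 fell in P1-12, 46 rose and 18 did not pass, with medians of −0.49 and 0.22. For 122 of the 256 the interaction was more positive in P1-12, for 63 more negative and for 71 not called. At the SDEG threshold 7 genes rose in KRAB and 1, GAT1_2.1, fell. The 7 included BGLU45 and MYB51 and, named after their values were seen, GAD4, PP2-A6, PP2-A8, AT3G18280 and AT2G19970. GAD4, a glutamate decarboxylase gene of the GABA shunt, stood at 3.04 and 4.02 CPM in P1-12 without Dex and 485 and 476 with it, and at 4.07 and 4.20 in KRAB without Dex and 161 and 67.6 with it. Its 2 KRAB Dex libraries differed by more than 2-fold, and the interaction of 2.27 ± 0.60 (edgeR adjusted p = 0.00769) was not an SDEG. Without KRAB (+DMSO) replicate 2 the count of 7 was 1, without KRAB (+0.25 μM Dex) replicate 2 it was 37, and without any 1 of the 4 P1-12 libraries it was 3. Without KRAB (+0.25 μM Dex) replicate 1, 2 genes fell in place of 1.

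A few genes responded more in KRAB than in P1-12. Of the 22 genes called more negative in P1-12 that moved the same way in both lines, 6 rose in both and rose further in KRAB. The one with the smallest p, again named after its values were seen, was AT2G19970, at 13.3 and 13.2 CPM in P1-12 without Dex and 28.0 and 32.6 with it, and at 15.7 and 15 in KRAB without Dex and 62.3 and 54.5 with it. Both KRAB Dex libraries exceeded both P1-12 Dex libraries, and the interaction was −0.75 ± 0.15 (edgeR adjusted p = 0.00165). At an adjusted p under 0.05 a further 39 genes had an interaction and moved in KRAB while P1-12 did not pass, 10 that fell and 29 that rose in KRAB. EXPA18, an expansin gene of root hairs, was among the latter, at 4.51 and 6.02 CPM without and 10.6 and 10.1 with Dex in KRAB and at 5.91 and 7.46 without and 4.43 and 5.65 with Dex in P1-12, an interaction of −1.33.

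For some genes that responded in both lines no difference in response was detected with 2 libraries per group. Of the genes that moved the same way in both lines, 76 had no interaction at an adjusted p under 0.05, 57 of them higher and 19 lower with Dex. For 27 of these the 95% interval of the interaction lay within 0.5 of 0 on the log2 scale. CCoAOMT1, a methyltransferase gene of lignin monomer synthesis named after its values were seen, was at 259 and 265 CPM without and 372 and 419 with Dex in P1-12 and at 238 and 241 without and 364 and 356 with Dex in KRAB. It rose by 0.60 and 0.59, and the interaction was 0.01 (95% interval −0.21 to 0.23). LOX1, a lipoxygenase gene outside jasmonate synthesis, rose by 0.70 and 0.69, an interaction of 0.00 (95% interval −0.27 to 0.28).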

How the data were processed

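RNA-seq of whole seedlings gave paired-end reads, which the authors trimmed with Trimmomatic (phred 33, minimum length 36), aligned to TAIR10 with TopHat2 and counted per gene with HTSeq. The deposited values are raw counts, with versions and the strand setting not given in the sources used here, so overlapping and antisense genes cannot be told apart. The members, gene lists and tests were chosen with earlier results of these data known.

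Of 33602 loci, 8941 held 0 counts in the 8 libraries. The 16721 genes above 2 CPM in at least 9 of all 10 libraries were fitted in edgeR 4.0.16 (R 4.3.3, limma 3.58.1) with TMM normalization, 1 mean per group and the quasi-likelihood test, 2-sided, with Benjamini-Hochberg adjustment over all genes (4 residual degrees of freedom, biological coefficient of variation 0.0677). The interaction was (P1-12 with Dex minus P1-12 with DMSO) minus (KRAB with Dex minus KRAB with DMSO) on the log2 scale. CPM use the TMM library sizes, and signs per library combination used a pseudocount of 0.5 CPM. An SDEG passed an absolute log2 fold change of 1 and an adjusted p under 0.0001, and single genes and list members an adjusted p under 0.05. The depth was 9139050 to 40544617 counts per library, and replicates differed by 2.78 to 6.66 times the counting variance per gene.

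The text names MORF2 and its neighbours, the 12 SDEGs with the largest interaction in each direction with the same sign in all 16 library combinations, the 5 SDEGs with the smallest p for each way the lines moved, and in each list up to 4 members with the smallest p plus the largest member against the list median. Other genes, whether marked so in the text or not, were named after their values were seen. Promoters came from RefSeq TAIR10.1, which matched 32835 loci. Alternatives were RLE size factors, DESeq2 1.42.0, the likelihood ratio test, looser or no count filter, all 10 libraries, a replicate block, thinning, an adjusted p of 0.01, each library left out and, chosen after seeing the data, leaving out organelle and rRNA loci. The code was tested on simulated data. The 2 libraries of P1-12 with 0.025 μM Dex entered the count filter and the fit on all 10 libraries.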

Additional observations from a re-analysis of the deposited data

Results flagged for a closer look

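The tested difference between the Dex responses of P1-12 and KRAB singled out 578 SDEGs more positive and 899 more negative in P1-12, of which 37 responded in opposite directions in the 2 lines. Among these 37, the genes with the smallest p were GAT1_2.1 (interaction 3.60 on the log2 scale), BT2 (2.67), IVD (1.97), KTI1 (2.53) and TPS9 (1.77). All 5 differed between the lines by the interaction term itself, and what sets them apart was not tested.

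The P1-12 libraries with 0.025 μM Dex stand outside the comparison. Of the 12 genes with the largest positive interaction, 9 lay above both P1-12 (+DMSO) values in both 0.025 μM libraries, the others being ATCG00020, AT4G39675 and GAT1_2.1. The choice of these 12 used the same P1-12 (+DMSO) libraries, so the count is a description with no test. BGLU45 stood at 348 and 386 CPM there, scaled over all 10 libraries, and MORF2 at 109 and 106 CPM. The series holds no KRAB library at this dose, so no difference between the lines could be formed.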

How the results depend on the processing

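No count of SDEGs and, of the genes called as reported or under the alternative, none but BCA3 changed direction under the alternatives run, and the interaction of MORF2 kept its call at −1.12 to −1.02 with each library left out. BCA3, a carbonic anhydrase gene not called in the report, was at −0.24 and ranged from −0.73 to 0.90 with KRAB (+0.25 μM Dex) replicate 2 or 1 left out, and the cause was not tested. Of 5315 values for 316 genes, 5140 kept their direction and side of the threshold, 154 lost the call (36 genes) and 20 gained it.

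With no count filter, which tests more genes, the interaction SDEGs were 1094 and 1647 (positive and negative), those of P1-12 1532 higher, of KRAB 141 and 6, of the lines without Dex 16 and 1 and with Dex 1413 and 1822. By way they were 841 and 1456 in P1-12 alone, 166 and 61 the same way, 86 and 119 opposite and 1 and 11 in KRAB alone. The likelihood ratio test gave 943 positive interaction SDEGs, 56 and 3 for KRAB, 779 positive in P1-12 alone, 111 and 14 the same way, 50 and 51 opposite and 3 and 4 in KRAB alone. An adjusted p under 0.01 gave 1016 and 1472, with 49 and 2 for KRAB, 905 and 1432 in P1-12 alone, 3 and 9 in KRAB alone and 2 and 7 in neither. DESeq2 gave 36 and 2 for KRAB and 2 and 2 in KRAB alone. All 10 libraries gave 16 higher for KRAB and 22 negative opposite, and thinning 3 negative the same way.

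Replicate numbers did not pair the samples (correlations of deviations −0.0885 to 0.0353). With the replicate block the interaction SDEGs were 496 and 787, KRAB had 4 higher and 3 negative genes moved the same way.

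Leaving out each library gave 293 to 578 and 448 to 853 interaction SDEGs, and 3076 to 3717 and 3468 to 4011 at an adjusted p under 0.05. The ranges were 678 to 998 and 844 to 1278 for P1-12, 1 to 37 and 1 to 2 for KRAB, 1 to 2 and 0 for the lines without Dex and 683 to 924 and 771 to 1172 with Dex. By way they were 247 to 474 and 437 to 830 in P1-12 alone, 25 to 76 and 2 to 9 the same way, 4 to 30 and 5 to 18 opposite, and 0 in KRAB alone and in neither. A group left with 1 library is assumed to vary like the others.

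The fit rests on 2 libraries per group and 4 residual degrees of freedom, and a missed call does not show that the lines responded alike.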

Other observations

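Genes silent in some groups fall outside the count filter, and a looser one, above 2 CPM in at least 2 of the 8 libraries, tested 1721 more. Of these, 17 were SDEGs more positive in P1-12 and 95 more negative. The positive ones included fitted interactions above the largest positive one in the report, 6.63 for AT3G58060, 6.29 for AT2G03020, 5.87 for CRK4 and 5.62 for AT1G33102. These 4 held 0 to 6 counts per P1-12 (+DMSO) library, so that the fitted sizes depend on the prior count. AT3G58060 went from 0 and 3 counts to 293 and 355 in P1-12 and from 4 and 12 to 38 and 14 in KRAB. The negative ones included fitted interactions beyond the most negative one in the report, among them −10.6 for GASA5 and −9.12 for VSP2. GASA5 went from 160 and 137 counts to 0 and 0 in P1-12 and from 130 and 261 to 399 and 104 in KRAB. VSP2 went from 1813 and 4562 counts to 6 and 9 in P1-12 and from 1652 and 3387 to 8952 and 2312 in KRAB. Where libraries held 0 counts, these fitted sizes also depend on the prior count.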
